A study of Mus musculus with 30 samples.

Results

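The response to bacterial lipopolysaccharide (LPS) was examined in RNA bound to the ribosomes of noradrenergic hindbrain cells of the mouse. The members are the 8 arrays of translating ribosome affinity purification (TRAP) RNA from the Slc6a2 line, 4 from LPS-injected and 4 from PBS-injected mice, of 30 arrays in all. They were picked by their labels alone. Each treatment holds 2 females and 2 males, and each sex and treatment was amplified once in batch 1 and once in batch 2, so treatment, sex and batch are fully balanced.

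All 8 arrays came from Tg(Slc6a2-EGFP/Rpl10a)JD1538Jdd/J mice of B6;FVB background, and the control mice carry the same transgene. Mice were adults of 6 to 12 weeks with implanted temperature transmitters, housed at 30 °C. The treated groups received LPS (Sigma) at 100 ug per kg into the peritoneum, and the controls received sterile PBS. Mice were killed in the early afternoon after a morning injection, by which time temperature had risen by 2.175 °C on average (SD 1.18) per the labels, which do not say which groups this covers. The design text gives 8 mice for the line, and 8 arrays were made, so an array is taken here as a mouse. The sets used beside these are 7 total RNA arrays of the same line (3 LPS, 4 PBS) and those of Tg(Slc6a4-EGFP/Rpl10a)JD60Jdd/J mice, whose serotonergic cells are tagged, with 7 TRAP arrays (4 LPS, 3 PBS) and 8 total RNA arrays (4 LPS, 4 PBS). Those mice were treated in the same way. Total RNA was taken from the TRAP lysates, before precipitation in batch 1 and from the unbound part in batch 2, so these kinds and the batch cannot be told apart there.

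Noradrenergic neurons of the hindbrain make noradrenaline from tyrosine and clear it with the transporter encoded by Slc6a2. They form the locus coeruleus and smaller groups in the medulla and pons, and are known for roles in arousal, autonomic control and the stress response. LPS is a component of the wall of Gram-negative bacteria and is sensed by Toll-like receptor 4. Cytokines then reach the brain or act on its vessels, whose cells release prostaglandin E2, the mediator that raises body temperature. In TRAP a ribosomal protein fused to EGFP is expressed from the regulatory sequence of a cell type's gene, and an antibody to EGFP pulls down the ribosomes with their RNA. The whole hindbrain was dissected, so the Slc6a2 TRAP RNA covers every tagged cell there and not the locus coeruleus alone.

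The deposited table gives 45281 probes without gene names, and 0 of the probe IDs occurred in the gene table used here. Probes are therefore reported by ID, and the gene lists and cell type markers drawn up for this tissue could not be looked up. The identity of the cells could not be checked against markers for the same reason. Values are log2 intensities after background correction and quantile normalization of these 8 arrays together, with an offset of 16. A probe was tested where it was detected (detection p under 0.01) on at least 3 of the 8 arrays, which held for 19541 probes.

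Between 15432 and 19101 probes were detected per Slc6a2 TRAP array, and the mean was 320.8 higher after LPS (exact permutation test over 70 splits, two-sided p = 0.86). Pairs of arrays correlated across probes at r = 0.79 to 0.92 (median 0.85). The PBS male of batch 2 stood apart on the first principal component (22.1% of the variance), at 114.6, where the other 7 lay from -53.8 to 20.6. It also had the fewest probes detected. Other PBS arrays were the most extreme on the next components. The male of batch 1 was at 87.8 on the second (17.2%) and the female of batch 1 at 102.0 on the third (16.3%). Results of the called probes are given with and without the PBS male of batch 2. In the sets used for comparison, the Slc6a2 total RNA array labelled PBS male of batch 2 and both Slc6a4 arrays labelled LPS female of batch 1 lay near the opposite treatment for the called probes. In Slc6a4 TRAP the array labelled PBS female of batch 1 was the highest PBS array for both, at 9.32 and 9.18. It lay above the LPS female of batch 1, at 8.63 and 8.45. Whether the labels of these arrays are right was not tested, so the differences and counts given with and without them carry that doubt.

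LPS raised 2 probes in noradrenergic TRAP RNA, and no probe passed the test as lower. These 2 of 19541 probes (0.0102% of those tested) were ILMN_2634083 and ILMN_2846775, called at an adjusted p under 0.05 by limma with sex and batch as terms. For both, every LPS array lay above every PBS array. In such bulk RNA, more RNA per cell and more cells that hold the RNA cannot be told apart.

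ILMN_2634083 stood at 10.66 (female, batch 1), 10.65 (female, batch 2), 10.93 (male, batch 1) and 10.92 (male, batch 2) after LPS. After PBS it stood at 6.53 and 5.28 in the females of batch 1 and batch 2, and at 6.74 and 7.90 in the males. The groups did not overlap, with a gap of 2.75 log2 units between them, and the PBS arrays were spread more widely than the LPS arrays. On the PBS female of batch 2 the probe was not detected. The mean was 10.79 ± 0.16 (SD, n = 4) after LPS and 6.61 ± 1.07 (SD, n = 4) after PBS. The difference was 4.18 log2 units (SE 0.44, 95% interval 3.18 to 5.17), or 18.1-fold on this scale, with a limma adjusted p of 0.048.

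ILMN_2846775 stood at 10.85 and 10.29 in the LPS females of batch 1 and batch 2, and at 10.78 and 10.41 in the LPS males. After PBS it stood at 6.93 and 5.85 in the females and 6.94 and 7.82 in the males. It was detected on all 8 arrays, and the groups lay 2.47 log2 units apart at their nearest. The mean was 10.58 ± 0.28 (SD, n = 4) against 6.88 ± 0.81 (SD, n = 4), a difference of 3.70 log2 units (SE 0.41, 95% interval 2.79 to 4.61, 13.0-fold, limma adjusted p = 0.048).

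Both probes gave the same order of PBS arrays at the extremes, with the PBS male of batch 2 highest and the PBS female of batch 2 lowest. Over the 8 arrays their values correlated at Pearson r = 0.99, and over all 30 arrays, each set normalized by itself, at r = 0.995. The points share their array, so this is a description, and whether both probes target the same transcript cannot be read from the table. If they do, the 2 calls are not separate observations of the response.

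**Figure D1:**
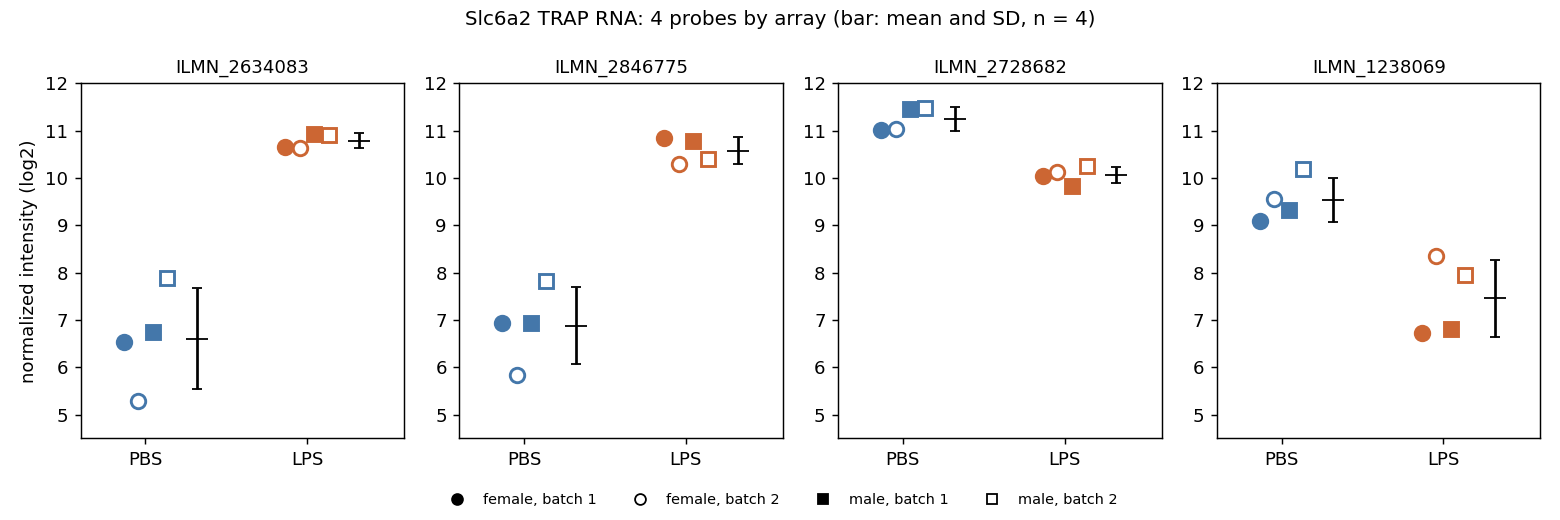
Normalized log2 intensity of 4 probes on the 8 Slc6a2 TRAP arrays, by treatment, with circles for females, squares for males, filled symbols for batch 1 and open symbols for batch 2; the black mark beside each group is its mean with the SD (n = 4). LPS and PBS arrays do not overlap for any of the 4 probes. The 2 probes on the left were called, the 2 on the right were not.

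The rise of both probes was present in each sex and batch. For ILMN_2634083 the LPS array exceeded the PBS array of its sex and batch by 4.13 and 5.36 log2 units in females and by 4.19 and 3.02 in males, batch 1 first. For ILMN_2846775 these differences were 3.92 and 4.44 in females and 3.85 and 2.58 in males. The smallest of the 4 was that of the males of batch 2 for both. Within batch 1 and batch 2 the mean differences of ILMN_2634083 were 4.16 and 4.19, and those of ILMN_2846775 were 3.88 and 3.51.

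The direction held under every alternative processing tried, while the call did not. ILMN_2634083 was higher by 3.11 to 4.81 log2 units over 23 alternatives, but its limma adjusted p ran from 0.0098 to 0.999. It was above 0.05 in 15 of them, and in 15 of 24 for ILMN_2846775. Leaving out the PBS male of batch 2, the array that stood apart, kept both calls, with differences of 4.57 and 4.06 log2 units and an adjusted p of 0.0098. Leaving out any 1 of the other 7 arrays left 0 probes past the threshold. With the LPS and PBS arrays of the same sex and batch as pairs, the adjusted p was 0.054 for both probes.

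No probe fell past the threshold, and 533 had an unadjusted limma p under 0.05 in that direction. The lower probes with the smallest p among those detected on every PBS array were ILMN_2728682 and ILMN_1238069, given here as values. ILMN_2728682 stood at 10.05 and 10.12 in the LPS females of batch 1 and batch 2 and at 9.84 and 10.26 in the LPS males. Its PBS arrays were at 11.01 and 11.04 in females and 11.47 and 11.49 in males. All LPS arrays were below all PBS arrays, by 0.75 log2 units at the nearest. The LPS minus PBS difference was -1.18 (SE 0.17, 95% interval -1.57 to -0.79, limma adjusted p = 0.14). The adjusted p was 0.042 where all 15 TRAP arrays shared an estimate of the spread and above 0.05 in the other 23 alternatives.

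ILMN_1238069 stood at 6.73 and 8.35 in the LPS females of batch 1 and batch 2 and at 6.82 and 7.95 in the LPS males, against 9.10 and 9.55 in the PBS females and 9.33 and 10.19 in the PBS males. The groups lay 0.75 log2 units apart at their nearest, and within each treatment both batch 2 arrays were above both batch 1 arrays. The difference was -2.08 (SE 0.36, 95% interval -2.89 to -1.28, limma adjusted p = 0.28). Batch 1 gave -2.44 and batch 2 gave -1.72. It did not pass under any of the 24 alternatives, where its adjusted p ran from 0.051 to 0.999.

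**Figure D2:**
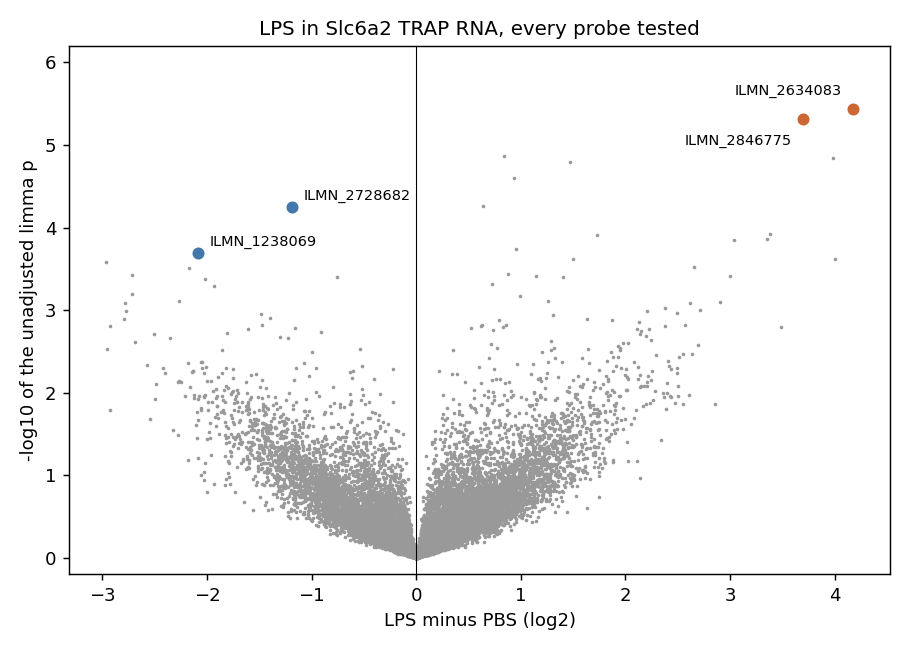
Each point is a probe tested in Slc6a2 TRAP RNA (19541 in all), with the LPS minus PBS difference in log2 units on the horizontal axis and -log10 of the unadjusted limma p on the vertical axis. The 2 called probes, in orange, are the highest points and lie at the right, and the lower probes ILMN_2728682 and ILMN_1238069, in blue, lie below them at -1.18 and -2.08.

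Just below the threshold, the 4 probes next in order of p were also higher after LPS, with adjusted p from 0.064 to 0.082 by limma and gaps of 0.55 to 3.51 log2 units between the groups. Of these, 3 were detected on all 8 arrays at high levels. The strongest of these 3 by p stood at 12.58 ± 0.12 after LPS and 11.74 ± 0.14 after PBS (SD, n = 4 each), the next at 11.07 ± 0.21 and 9.61 ± 0.37, and the last at 12.55 ± 0.14 and 11.61 ± 0.20. Their differences, 0.84, 1.47 and 0.94 log2 units, were smaller than those of the called probes and the spread around them was smaller too. In Slc6a2 total RNA these 3 probes differed by 0.85, 0.92 and 0.19 log2 units, in the same order. Their differences were 0.60, 0.53 and 1.55 in Slc6a4 TRAP and 0.72, 0.53 and 0.53 in Slc6a4 total RNA. None of these passed.

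The remaining probe of the 4 was detected on all 4 LPS arrays and on 0 of 4 PBS arrays. After LPS it stood at 8.92 and 8.31 in the females of batch 1 and batch 2 and at 8.47 and 9.22 in the males. After PBS all arrays lay between 4.69 and 4.80, at background. It was at least 7.91-fold higher after LPS, a bound that sets its LPS mean against the lowest value of a detected probe on each PBS array, with a limma adjusted p of 0.064. In total RNA of the same line this probe had the smallest p of all, at 3.44 ± 0.34 log2 units higher after LPS (SE, limma adjusted p = 0.079). In the Slc6a4 line it was higher by 1.21 (SE 0.70, limma adjusted p = 0.85) in TRAP and by 1.49 (SE 0.52, limma adjusted p = 0.61) in total RNA.

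Among the 10 probes with the smallest p, 9 were higher after LPS, among the first 50 this held for 34, and among the first 100 for 70. Over all 19541 probes 663 were higher (3.39%) and 533 lower (2.73%) at an unadjusted limma p under 0.05. The median difference was 0.017 log2 units, and its SD across probes was 0.59. A difference of at least 1 log2 unit was seen for 1011 probes upward and 902 downward, of which 185 and 188 were detected on all 8 arrays. Over all probes tested the median SE was 0.48. A difference of 1 log2 unit was just under the median half-width of the 95% interval, 1.08. At the median SE a probe needed a difference of 4.38 log2 units for 2 probes to pass together. Among probes detected on all 8 arrays the median SE was lower, at 0.34.

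The 4 LPS arrays all lay above the 4 PBS arrays for 329 probes (1.68% of those tested) and all below for 230 (1.18%). Of the 329, 192 were detected on all 8 arrays and 177 differed by at least 1 log2 unit, with a median difference of 1.09. Of the 230, 131 were detected on all 8 and 125 differed by at least 1 log2 unit, with a median of -1.07. Any probe separated in this way has the smallest exact p that 4 against 4 arrays allow, 0.029 before adjustment, and nothing about a response is read from these counts. On detection alone, 22 probes (0.113%) were detected on every LPS array and no PBS array, and 19 (0.0972%) the other way. The first of these sets includes the probe just described, and neither set includes a called probe.

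Across the whole array the LPS differences of batch 1 and batch 2 had little in common. Over 19541 probes they correlated at Pearson r = 0.048 and Spearman rho = 0.029, and 50.1% had the same sign. Female and male differences correlated at r = 0.034 and rho = 0.020. Among the 11547 probes detected on all 8 arrays these r were 0.058 and 0.051. Probes are not independent replicates, and each of these differences rests on 2 against 2 arrays. Probes with a small p have similar differences in both batches by the way they are picked, and all 100 with the smallest p had the same sign in both.

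**Figure D3:**
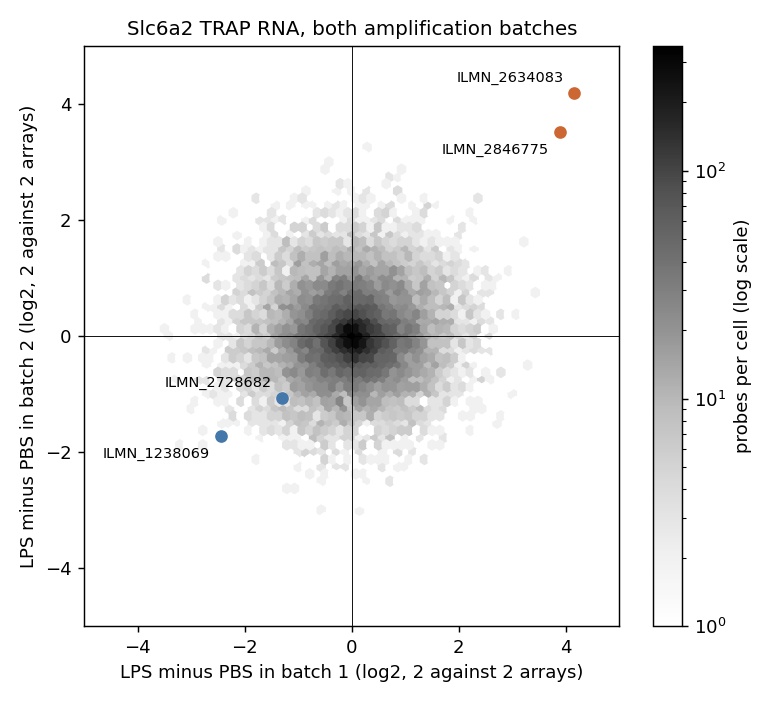
LPS minus PBS difference in batch 1 (horizontal) and batch 2 (vertical) for all probes tested, in log2 units, with grey cells shaded by the number of probes on a log scale. The cloud is round, with r = 0.048, while ILMN_2634083 (4.16 and 4.19) and ILMN_2846775 (3.88 and 3.51) lie at the upper right.

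The sexes were balanced, so their responses could be compared. No probe of 19541 passed for a difference between the sexes in the LPS response (limma, 1074 at an unadjusted p under 0.05), and 1 passed without the PBS female of batch 1. The female minus male difference in response was 1.14 (95% interval -0.80 to 3.08) for ILMN_2634083 and 0.96 (-0.84 to 2.77) for ILMN_2846775. It was 0.48 (-0.26 to 1.23) for ILMN_2728682 and 0.59 (-1.07 to 2.26) for ILMN_1238069. With 1 array left out the values for the called probes ran from 0.33 (without the PBS female of batch 2) to 1.95 (without the PBS female of batch 1) and from 0.18 (without the PBS male of batch 2) to 1.75 (without the PBS male of batch 1). Those of ILMN_2728682 ran from 0.29 to 0.67 and those of ILMN_1238069 from 0.19 to 0.996. These intervals are wide, and the median SE of this test was 0.98 log2 units, so this design gave little power to detect a difference between the sexes.

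Hindbrain total RNA of the same line was compared next, to ask whether the rise was also seen in RNA that had not been precipitated. In batch 1 it was taken before precipitation, so there it still includes RNA of the tagged ribosomes. ILMN_2634083 was at 11.29, 11.19 and 11.49 on the 3 LPS arrays of total RNA. On the PBS arrays it was at 7.61 (male, batch 1), 8.41 (female, batch 2), 8.74 (female, batch 1) and 10.996 (male, batch 2). The PBS male of batch 2 thus lay close to the LPS arrays, while the TRAP array with the same labels was the highest of its PBS group but 2.75 log2 units below the LPS arrays. The difference in total RNA was 2.30 log2 units (SE 0.59, limma adjusted p = 0.64), and 3.03 (SE 0.25, limma adjusted p = 0.0014) without that array. ILMN_2846775 gave 2.03 (SE 0.54) with it and 2.70 without it. That array was singled out by its values for the called probes. The larger differences and smaller p without it follow from that choice and are not read as support. Other arrays moved the values the other way, to 1.52 and 1.21 without the PBS female of batch 2 and to 1.64 and 1.51 without the LPS female of batch 1. In this set 0 of 22842 probes (0.00%) passed (limma, 1168 at an unadjusted p under 0.05). Without the PBS male of batch 2, 63 passed, and 0 passed with any other array left out.

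On a joint scale for the 15 arrays of the line, both called probes had lower means in TRAP than in total RNA, and this passed the test for ILMN_2634083 alone. ILMN_2634083 was at 10.79 ± 0.14 in TRAP (SD, n = 4) and 11.35 ± 0.16 in total RNA (SD, n = 3) after LPS, and at 6.91 ± 1.00 and 8.80 ± 1.57 (SD, n = 4 each) after PBS. Averaged over treatments it was lower in TRAP, with a TRAP minus total difference of -1.18 (SE 0.43, limma adjusted p = 0.049). For ILMN_2846775 that difference was -0.94 (SE 0.39, limma adjusted p = 0.079). Both differences include the total RNA PBS male of batch 2, whose label is in doubt, at 11.01 and 10.90 on this scale. They were not computed without that array. TRAP and total RNA arrays were treated as independent in this fit. ILMN_2728682 was also lower in TRAP, at -0.97 (SE 0.09, limma adjusted p = 1.6e-05), and ILMN_1238069 showed a difference of 0.05 (SE 0.19, limma adjusted p = 0.86). Markers of untagged cells could not be looked up, and the part of RNA from such cells in the TRAP values was not tested.

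The LPS response itself did not differ between TRAP and total RNA past the threshold for any of 24493 probes (0.00%; limma, 945 at an unadjusted p under 0.05). The response of ILMN_2634083 exceeded that in total RNA by 1.42 log2 units (95% interval -0.46 to 3.30) and that of ILMN_2846775 by 1.24 (-0.46 to 2.94). These values fell to 0.64 and 0.52 when the PBS male of batch 2 was left out of total RNA. They were 2.28 and 2.14 with the PBS female of batch 2 left out of it, and 2.14 and 1.81 with the LPS female of batch 1 left out. Those of ILMN_2728682 and ILMN_1238069 were more negative in TRAP, by -0.75 (95% interval -1.16 to -0.34) and -1.56 (-2.39 to -0.73), with a limma adjusted p of 1.00 for both. The fit treated arrays of the same lysate as independent. In total RNA alone ILMN_2728682 and ILMN_1238069 differed by -0.35 (SE 0.10) and -0.32 (SE 0.20). All named probes were picked by their LPS differences on the TRAP arrays that enter this test. That choice can push the differences between TRAP and total RNA away from 0, and the 95% intervals do not allow for it.

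The tested probes were further split by their TRAP minus total RNA difference, averaged over treatments. Of 3997 probes higher in TRAP, 0 were called for LPS, 1.83% had all LPS arrays above all PBS arrays and 1.28% all below. Of 3638 probes lower in TRAP, 1 was called, with 2.50% above and 1.18% below. Among the remaining 11906, 1 was called, with 1.39% and 1.14%. The median LPS difference was 0.001, 0.046 and 0.016 log2 units in these classes, and the median SE was 0.33, 0.46 and 0.52, so precision was highest for the TRAP-rich probes. The classes use the same TRAP arrays as the LPS values, and these shares are given as a description.

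Serotonergic TRAP RNA was measured in other mice under the same treatment. ILMN_2634083 stood at 8.63, 10.03, 10.12 and 10.45 on its LPS arrays and at 7.08, 7.92 and 9.32 on its PBS arrays. The lowest LPS array, the female of batch 1, lay below the highest PBS array, also the female of batch 1. The difference was 1.63 log2 units (SE 0.58, limma adjusted p = 0.85), from 0.75 to 2.77 with 1 array left out, and that of ILMN_2846775 was 1.46 (SE 0.54, limma adjusted p = 0.85). In this set 2 of 19291 probes (0.0104%) passed, neither of them named here, and 0 to 3 with 1 array left out. In Slc6a4 total RNA both probes were higher on 3 of 4 LPS arrays than on any PBS array, and the exception was again the female of batch 1, at 8.86 for ILMN_2634083 against 11.36 to 11.70 on the other LPS arrays. There the differences were 2.40 (SE 0.49) and 2.19 (SE 0.46), with a limma adjusted p of 0.37 for both, and 3.12 and 2.87 without that array (limma adjusted p = 0.00063). That array too was singled out by its values for these probes, so the values without it are not read as support. With 1 of the other arrays left out they ran from 2.02 to 2.99 and from 1.80 to 2.72. With all 8 arrays 0 of 23358 probes (0.00%) passed (limma, 1677 at an unadjusted p under 0.05). Without the LPS female of batch 1, 78 passed, and 0 to 1 passed with any other array left out.

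In the direct test, the LPS response of Slc6a2 TRAP exceeded that of Slc6a4 TRAP by 2.48 log2 units for ILMN_2634083 (95% interval 0.69 to 4.27) and by 2.17 for ILMN_2846775 (0.53 to 3.80), with a limma adjusted p of 1.00 for both. These values rest on single Slc6a4 arrays: they were 1.30 and 1.09 without its PBS female of batch 1, and 3.37 and 2.95 without its LPS female of batch 2. Without its LPS female of batch 1, whose label is in doubt, they were 1.90 and 1.61. The named probes were picked by their LPS differences on the same Slc6a2 TRAP arrays. That choice can push the differences between the lines away from 0, and the 95% intervals do not allow for it. No probe of 21863 (0.00%) passed this test (limma, 962 at an unadjusted p under 0.05), 1 did when the LPS male of batch 2 was left out of the Slc6a2 TRAP arrays, and 2 did with array weights. ILMN_1238069 shared the lowest adjusted p, 0.091, with probes of smaller unadjusted p, and had a difference of -2.89 log2 units (SE 0.41, 95% interval -3.78 to -1.997). In Slc6a4 TRAP it was higher after LPS, at 9.08, 9.15, 9.42 and 9.63 against 8.23, 8.33 and 8.83 after PBS, and the groups did not overlap there either. Its signs were opposite in total RNA too, at -0.32 (SE 0.20) in the Slc6a2 line and 0.54 (SE 0.26) in the Slc6a4 line. ILMN_2728682 was at 9.28 to 10.08 after LPS and 10.28 to 10.47 after PBS in Slc6a4 TRAP, the same direction as in Slc6a2 TRAP, with a difference of -0.42 (SE 0.18, limma adjusted p = 0.85).

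**Figure D4:**
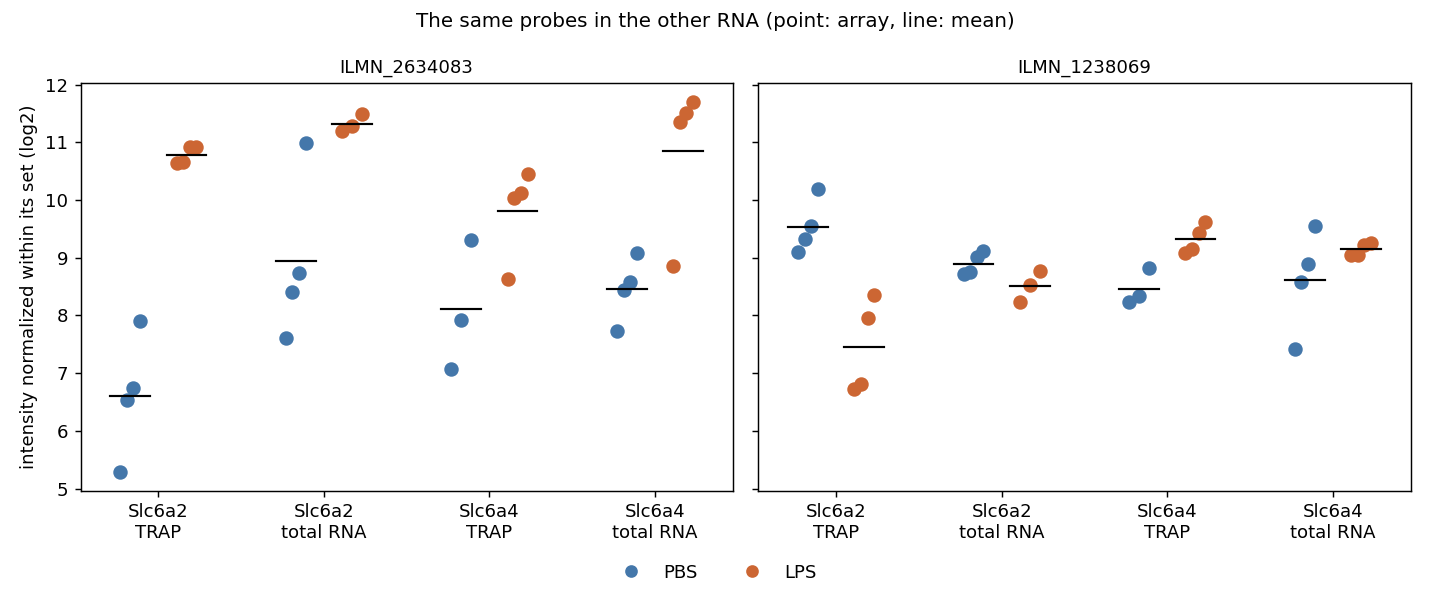
Log2 intensity of ILMN_2634083 (left) and ILMN_1238069 (right) on every array of the 4 sets, each set normalized by itself, with PBS in blue, LPS in orange and a line at each mean. ILMN_2634083 is higher after LPS on average in all 4 sets, with 1 high PBS array in Slc6a2 total RNA and 1 low LPS array in each Slc6a4 set. For ILMN_1238069 the LPS points lie under the PBS points in Slc6a2 TRAP and over them in Slc6a4 TRAP. In total RNA its mean is also lower after LPS in the Slc6a2 line and higher in the Slc6a4 line.

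The probes whose LPS and PBS arrays did not overlap in Slc6a2 TRAP were then followed in the 3 sets that had no part in their choice. Of the 329 higher probes, 320 were tested in Slc6a2 total RNA, where 62.2% were higher after LPS, against 51.9% of all probes tested in both. In Slc6a4 TRAP 63.6% of 302 were higher, against 50.7% of all, and in Slc6a4 total RNA 56.1% of 321, against 48.9%. Of the 230 lower probes, 59.2%, 62.0% and 57.6% were lower in these sets, against 48.1%, 49.3% and 51.1% of all. An unadjusted limma p under 0.05 in the higher direction was found for 11.9%, 11.9% and 15.9% of the 329, against 2.68%, 3.38% and 3.62% of all. In the lower direction this held for 4.13%, 5.37% and 3.69% of the 230, against 1.99%, 2.18% and 3.30% of all, so the share was near the background in Slc6a4 total RNA. Of the 19 probes detected on PBS arrays alone, 52.9% of the 17 tested in Slc6a2 total RNA were higher after LPS. This held for 53.3% of 15 in Slc6a4 TRAP and 33.3% of 15 in Slc6a4 total RNA. For the 22 detected on LPS arrays alone, these shares were 59.1% of 22, 57.9% of 19 and 72.7% of 22. Shares of so few probes are imprecise. The arrays of the Slc6a4 line came from other mice, whereas total RNA and TRAP of the Slc6a2 line come from the same kind of lysate and are not independent.

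**Figure D5:**
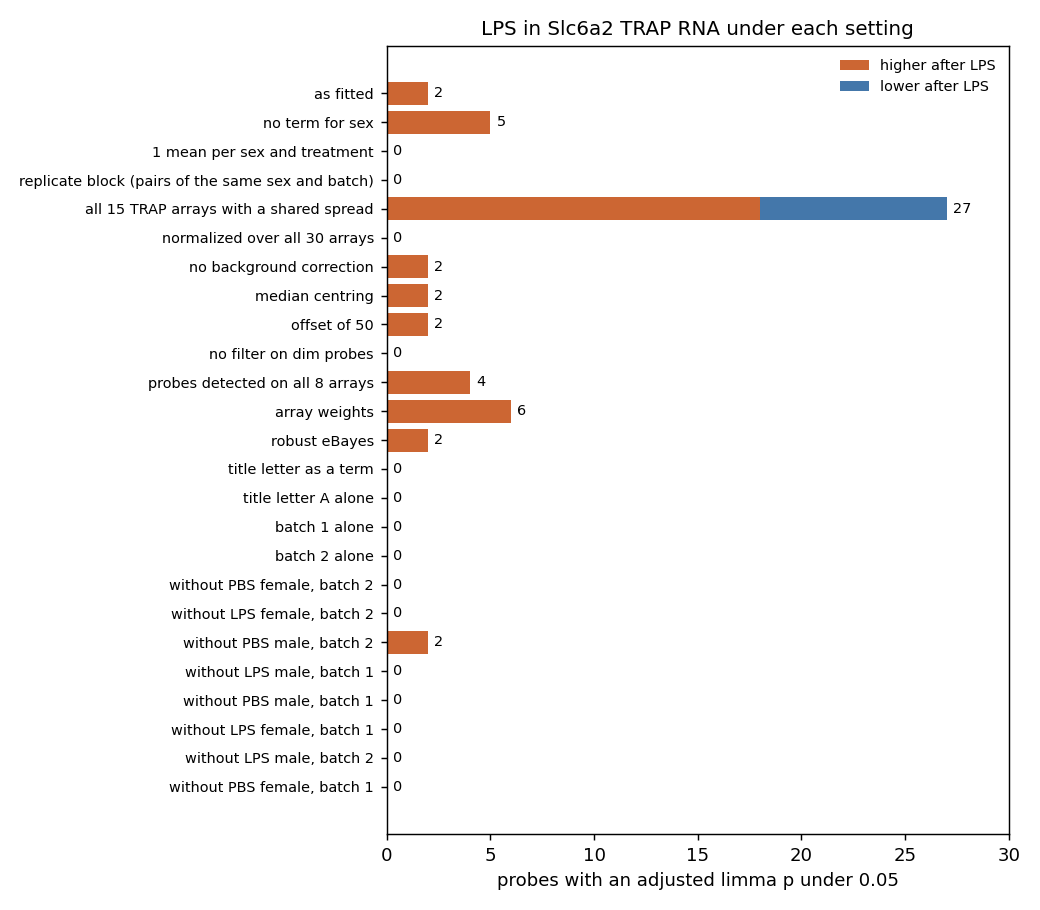
Number of probes with an adjusted limma p under 0.05 for LPS in Slc6a2 TRAP RNA, as fitted and under each of 24 alternatives, with rises in orange and falls in blue. The count is 2 as fitted, 27 where both lines share an estimate of the spread, and 0 in 15 of the 24 alternatives, among them 7 of the 8 that leave out an array.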

How the data were processed

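RNA of mouse hindbrain was measured on bead arrays after amplification of 3 to 7 ng per sample, per the labels' protocols. The authors deposited 1 table with an intensity value and a detection p-value per probe and array. The deposited intensity values were labelled as not normalized and spanned 8.2 to 60960 on the 8 arrays. Whether background had been subtracted is not stated. The submitters' processing notes name lumi, with no role, and bead summarisation is not given in the sources used here. Among the array columns, 0 duplicated another.

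For the 8 Slc6a2 TRAP arrays, background correction (normexp, control parameters inferred from detection p), an offset of 16, quantile normalization and log2 were applied by neqc (limma 3.58.1, R 4.3.3). The offset makes fold changes of dim probes smaller. Differences were fitted with terms for treatment, sex and amplification batch (lmFit, eBayes with a trend, 4 residual degrees of freedom), and p-values were adjusted by Benjamini-Hochberg over all probes tested. Other sets and joint comparisons were normalized and fitted in the same way over their own arrays. Alternatives changed the filter, normalization, offset, background, model terms, weights, pooling of the spread and arrays included. The gene lists drawn up could not be tested without gene names. The fits were tested on data simulated with independent normal noise of equal spread in both treatments. The called probes were spread more widely after PBS than after LPS, a setting that the simulation did not cover. The members, though picked by labels, and the lists and tests were chosen with earlier results of these data known. Named probes are at most 2 per direction: called probes with the largest difference of the same sign in both batches, then the smallest p among probes detected on all arrays of the higher group. The number of arrays limits the precision.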

Additional observations from a re-analysis of the deposited data

Results flagged for a closer look

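An array far from the others of its group was found in 5 of 30 groups of values examined, where chance gives about 5%. The groups share arrays and are not independent, and the flags of ILMN_2634083 and ILMN_2846775 fall on the same array. No excess is read from this count. In Slc6a4 total RNA the LPS female of batch 1 stood at 8.86 for ILMN_2634083 and 8.74 for ILMN_2846775, while the other LPS arrays lay from 11.36 to 11.70 and from 11.21 to 11.46. For ILMN_2728682 the PBS male of batch 1 was at 11.90 in Slc6a2 total RNA (others 11.71 to 11.73), the LPS male of batch 1 at 9.28 in Slc6a4 TRAP (others 10.02 to 10.08) and the PBS male of batch 2 at 12.17 in Slc6a4 total RNA (others 11.80 to 11.83). None of the named probes' Slc6a2 TRAP groups held such an array.

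ILMN_1238069 differed in opposite directions in the TRAP RNA of both lines, with a difference of 0.83 in Slc6a4 TRAP and -2.08 in Slc6a2 TRAP and no overlap of LPS and PBS arrays in either. The test of the difference gave a limma adjusted p of 0.091. The probe was picked by its fall in Slc6a2 TRAP, and that choice can widen the difference. The signs were also opposite in total RNA, at 0.54 (SE 0.26) in the Slc6a4 line and -0.32 (SE 0.20) in the Slc6a2 line. Neither passed (limma adjusted p = 0.71 and 0.96), and opposite signs were thus not particular to TRAP RNA.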

How the results depend on the processing

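For LPS in Slc6a2 TRAP RNA, 2 probes passed as fitted and also without background correction, with median centring, with an offset of 50 and with robust eBayes. The count was 27 (18 higher, 9 lower) where all 15 TRAP arrays shared a spread, 6 with array weights, 5 without a term for sex and 4 among probes detected on all 8 arrays. It was 0 with a mean per sex and treatment, with the replicate block (paired arrays of the same sex and batch), normalized over all 30 arrays, with no filter on dim probes, with the title letter as a term, in letter A alone, and in batch 1 or batch 2 alone. With an array left out it ran from 0 to 2. The cause of these changes was not tested. The deviations of paired arrays correlated at 0.050 to 0.14. For the response by line the count was 0 as fitted, 2 with array weights and 0 to 1 with an array left out; by fraction it was 0 throughout (17 alternatives); by sex it was 0 with array weights and 0 to 1 with an array left out. No named probe changed direction under any alternative run for these tests. Among the other sets, ILMN_2728682 in Slc6a4 total RNA went from -0.047 with all arrays to 0.042 without the LPS male of batch 1. The non-overlap counts, an alternative chosen after seeing the data, were 346 higher and 188 lower with median centring. They stayed at 329 and 230 when normalized over all 30 arrays, without background correction and with an offset of 50. Those settings keep the order of probes within each array, so they could not move the counts.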
